A study of Mus musculus with 48 samples.

Results

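Monocytes and mature red pulp macrophages (RPMs) of wild-type (WT) mice were compared by RNA-seq, in 8 of the 48 samples of the series, namely 4 libraries of each cell type among 24 RNA-seq libraries. Membership follows the genotype and cell type given by the labels. Every sample came from the spleen of a single male Balb/c mouse aged 10 weeks. Monocytes had been sorted as Ly6Glo CD11bhi F4/80- cells and RPMs as Ly6Glo CD11blo/- F4/80hi cells, and the labels number the mice 1 to 4 in both groups. Values below are always listed in that order of mice. WT pre-RPMs, the macrophage precursors sorted as Ly6Glo CD11bhi F4/80lo cells, and the monocytes and RPMs of IL1RL1-/- mice of the same strain, with 4 libraries in each group, serve as points of reference. IL1RL1 is the receptor of interleukin (IL)-33, and the labels name no Cre or transgene for either genotype. The study asked how monocytes give rise to RPMs, and this comparison sets the start of that path against its end.

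RPMs lie in the splenic red pulp, take up aged red blood cells, degrade hemoglobin, and return the iron to the circulation. Heme released from ingested cells is cleaved by heme oxygenase, the iron is either held in ferritin or exported through ferroportin, and the transcription factor SPIC is needed for the cells to form. Monocytes are the circulating precursors from which part of the RPM pool is renewed. Classical monocytes carry Ly6C and the chemokine receptor CCR2 and enter tissues, whereas nonclassical monocytes patrol vessels and carry high CX3CR1.

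The libraries matched their labels by defining markers. *Itgam*, which encodes the sorted antigen CD11b, was counted at 77, 58.3, 77.1, and 80.8 CPM in monocytes and 1.69, 4.27, 1.34, and 1.62 CPM in RPMs. *Adgre1*, which encodes F4/80, was counted at 14.5, 11.4, 47.5, and 31 CPM in monocytes and 261, 209, 290, and 250 CPM in RPMs. These antigens defined the gates, so neither difference is a finding. All 8 markers used to check monocytes, *Itgam* among them, were lower in RPMs, and all 10 used to check RPMs, *Adgre1* among them, were higher. CPM are the counts of a gene scaled to a common library size and normalized for library composition. Total counts ranged from 4212726 to 6559454 in monocytes and from 4340434 to 4785254 in RPMs. Of these, protein-coding genes held 1647335 to 2387454 and 1647616 to 1820846, respectively, so that counting error matters most for genes of low counts. Counts of 3 or less in a library were treated as not told apart from 0. The noncoding gene Gm42418 took 25.2% to 35.4% of the counts in monocytes and 25.9% to 35.1% in RPMs. Across genes, log2 CPM correlated at a median r of 0.9592 between monocyte libraries, 0.9633 between RPM libraries, and 0.6788 between the cell types, which describes libraries that share genes and is no test.

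Genes of other cell types were also counted. The summed level of 12 natural killer (NK) cell markers was 1890, 2220, 688, and 1270 CPM in monocytes and 26.2 to 64.7 CPM in RPMs, with 10 of 10 tested markers lower in RPMs. That of 14 neutrophil markers was 2680, 1450, 2260, and 876 CPM in monocytes and 48.4 to 60.6 CPM in RPMs, with 11 of 12 tested lower, although Ly6Ghi cells had been gated out. Both sums were therefore high in every monocyte library, and 4 of the neutrophil markers were at or below 3 counts in all RPM libraries. Erythroid markers, mostly globin, summed to 1970, 1380, 22500, and 9520 CPM in RPMs and to 6.87 to 23.9 CPM in monocytes, and all 11 tested were higher in RPMs. Plasma cell (588 to 750 against 162 to 302 CPM), dendritic cell (107 to 201 against 40.1 to 70.2 CPM), and basophil and mast cell markers (42.9 to 129 against 4.01 to 15.1 CPM) were higher in monocytes in sum. T cell sums (66.1 to 190 and 52.4 to 139 CPM) and B cell sums (42.4 to 163 and 56.9 to 196 CPM) overlapped between the groups. Of 12 T cell markers tested, however, 3 were higher and 2 lower in RPMs, whereas 0 of 12 B cell markers were called. The T cell sum was led by *Lck*, *Cd247*, and *Bcl11b* in monocytes and by *Cd4*, *Cd3g*, and *Cd3e* in RPMs. Megakaryocyte and platelet sums lay at 2.98 to 9.62 and 3.74 to 6.31 CPM, and stromal sums at 5.19 to 8.95 and 9.93 to 13.1 CPM. Eosinophil (13.1 to 28.0 against 276 to 400 CPM), endothelial (16.3 to 29.8 against 292 to 358 CPM), and marginal zone macrophage sums (11.8 to 19.3 against 153 to 176 CPM) were higher in RPMs, led by *Ccr3*, *Stab2*, and *Nr1h3*, respectively. Of the 8 eosinophil markers, only 3 were tested, with 1, *Ccr3*, higher and 1 lower in RPMs. Of the 10 endothelial markers, 5 were at or below 3 counts in every RPM library.

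The mice also divided among themselves. Monocyte libraries of mice 3 and 4 held more of many monocyte genes, such as *Ccr2* and *Fn1*, than those of mice 1 and 2, and less of the NK markers. RPM libraries of mice 3 and 4 held more globin. In bulk samples such as these, fewer cells of a type and less RNA per cell cannot be told apart, and the part that other cells play in any difference below was not tested. The number of genes called was 2852 without mice 1 and 2 and 2610 without mice 3 and 4, against 2769 with all 4 mice.

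**Figure D1:**
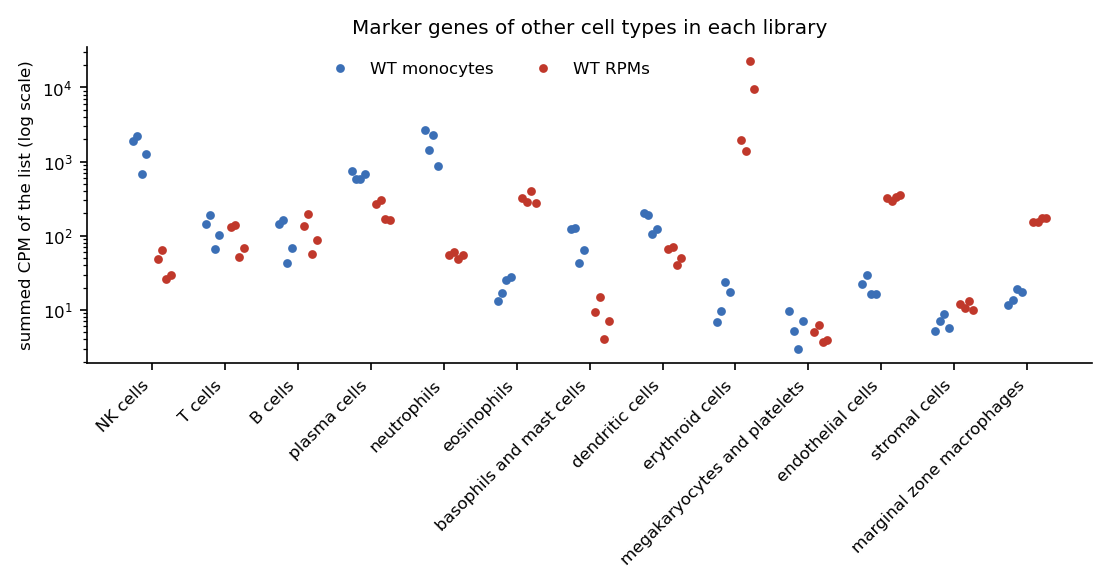
Summed CPM (log scale) of the marker genes of 13 other cell types, with 1 point per library in the order of mice 1 to 4, in WT monocytes (blue) and WT RPMs (red). NK and neutrophil sums were at least 688 CPM in every monocyte library and at most 64.7 CPM in every RPM library, and erythroid sums reached 22500 CPM in RPMs.

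Many of the genes tested differed between monocytes and RPMs by more than the spread between mice. Of 11607 genes tested, 2769 (23.9%) were called at an edgeR adjusted p under 0.01 and a log2 fold change above 1 in either direction. Among them, 1554 (13.4%) were higher and 1215 (10.5%) were lower in RPMs, while the median log2 fold change of all genes tested was −0.01. The median absolute log2 fold change was 2.09 in the genes that rose and 2.10 in those that fell, but large rises were more numerous, with 193 rises and 72 falls beyond a log2 fold change of 5. In 136 of the genes that rose, no monocyte library exceeded 3 counts, and in 61 of those that fell, no RPM library did. The 4 monocyte values and the 4 RPM values did not overlap in 1551 of 1554 genes higher and 1190 of 1215 genes lower in RPMs, against 5175 of all 11607. With total counts in place of composition-normalized library sizes, 1312 genes were higher and 1496 lower, since the median of all genes then lay at −0.18, so the balance of both directions depends on the scaling.

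**Figure D2:**
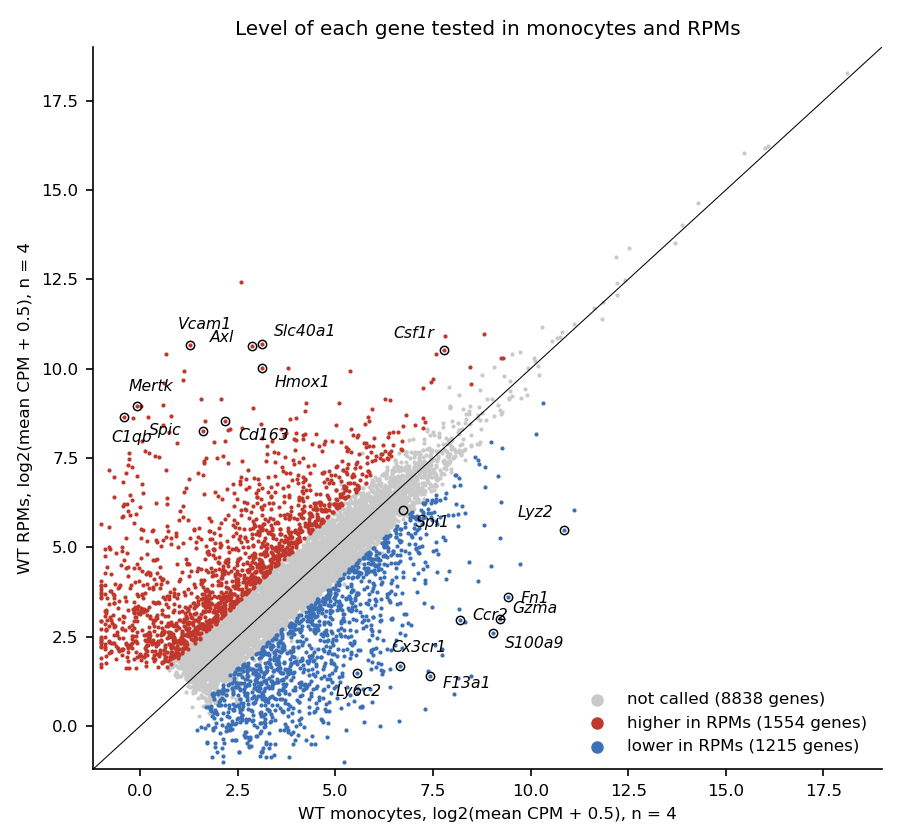
Mean level of each of the 11607 genes tested in WT monocytes (x axis) and WT RPMs (y axis), both as log2(mean CPM + 0.5) over 4 libraries. Red points are the 1554 genes higher and blue points the 1215 genes lower in RPMs, and the line marks equal levels. *Spi1* lies near the line, while *Vcam1*, *Axl*, and *Slc40a1* lie far above it.

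Genes known from RPMs were mostly higher in them. Of 29 genes associated with RPMs, 27 were higher, 1 was lower, and 1 was not called, with a median log2 fold change of 5.84. Such genes were listed because they are known for RPMs, so their count describes the sort rather than tests it. *Spic* (ENSMUSG00000004359, chromosome 10 from 88674772 to 88685015 on the minus strand), the transcription factor that RPMs require, was counted at 2.44, 0.799, 4.82, and 2.25 CPM in monocytes and 311, 273, 296, and 346 CPM in RPMs (log2 fold change 6.90, SE 0.33, edgeR's adjusted p = 5.95e-08). All RPM libraries were within a narrow range, and the highest monocyte library lay far below them. *Vcam1*, an adhesion molecule that binds integrins, was counted at 2.75, 2.2, 0.918, and 1.8 CPM in monocytes and 1540, 1310, 1860, and 1730 CPM in RPMs (log2 fold change 9.64, SE 0.30, edgeR's adjusted p = 3.42e-09). *Mertk* (ENSMUSG00000014361, chromosome 2 from 128698956 to 128802894 on the plus strand), a receptor tyrosine kinase for apoptotic cells, was counted at 0.458, 0.799, 0.229, and 0.3 CPM in monocytes and 491, 449, 518, and 545 CPM in RPMs (log2 fold change 10.04, SE 0.25, edgeR's adjusted p = 1.19e-09). Neither gene was above 3 CPM in any monocyte library, and neither varied much between RPM libraries.

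Other surface genes of RPMs behaved alike. *Axl*, a relative of *Mertk*, was counted at 4.43, 3.99, 10.3, and 8.24 CPM in monocytes and 1610, 1390, 1690, and 1610 CPM in RPMs (log2 fold change 7.85, SE 0.33, edgeR's adjusted p = 2.07e-08). *Itgad*, the integrin chain CD11d, was counted at 2.14, 2.6, 0.459, and 1.35 CPM in monocytes and 857, 739, 837, and 874 CPM in RPMs (log2 fold change 8.91, SE 0.32, edgeR's adjusted p = 7.92e-09). Both were among the most counted genes of RPMs and were low in every monocyte library. *Treml4*, which is found on both macrophages and nonclassical monocytes, was counted at 25.8, 20.4, 58.3, and 34.8 CPM in monocytes and 244, 208, 281, and 251 CPM in RPMs (log2 fold change 2.81, SE 0.29, edgeR's adjusted p = 1.59e-05), a smaller change from a higher start. *Cd5l*, a secreted scavenger protein, rose from 0.278 ± 0.255 to 136 ± 30.3 CPM (mean ± SD, n = 4). Its log2 fold change was 8.66, or 9.31 without monocyte library 1. The ion channel genes *Kcna2* (0.799 ± 0.482 to 188 ± 22.4 CPM) and *Trpm2* (11.7 ± 1.76 to 319 ± 30.8 CPM) also rose. Further rises were those of *Slco2b1* (8.87, and 9.51 without monocyte library 4), an organic anion transporter, *Paqr9* (7.65), and *Epb41l3* (6.23), a cytoskeletal protein (log2 fold changes). *Akr1b7*, an aldo-keto reductase, was at 0 in every monocyte library and at 13.3, 15.9, 16.8, and 12.2 CPM in RPMs, at least 26.5-fold higher. Smaller rises were those of *Siglec1* (log2 fold change 2.88), encoding the sialic acid receptor CD169, of *Sirpa* (2.16), the receptor for the CD47 signal, and of *Cd68* (2.02), an endosomal glycoprotein. *Siglec1*, *Sirpa*, and *Cd68* were higher in the monocyte libraries of mice 3 and 4 than in those of mice 1 and 2. The exception was *Cd209a*, a lectin of dendritic cells, which fell from 27.7 ± 5.75 to 0.57 ± 0.661 CPM (log2 fold change −5.46, SE 0.45, edgeR's adjusted p = 3.42e-06, and −6.08 without RPM library 2), and *Cd209b*, a marker of marginal zone macrophages, was not called (log2 fold change −0.28, edgeR's adjusted p = 0.654).

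The promoter windows of 4 genes that rose and 1 that fell are shown as examples in which the groups did not overlap, chosen after their values were seen and among genes with a window in the table of promoters. Each window holds the 250 bases before the start of the gene, read 5′ to 3′ on the strand of the gene, as RefSeq gives it for GRCm38.p6. That is the C57BL/6J reference, not the Balb/c genome of these mice. The starts are those of RefSeq, and by the Ensembl gene spans the windows of *Spic*, *C1qc*, and *Ccr2* lie wholly or mostly within their genes. The windows are chr10:88683024-88683273 (minus strand) for *Spic*, chr4:136886201-136886450 (minus) for *C1qb*, chr4:136892915-136893164 (minus) for *C1qc*, chr2:128698665-128698914 (plus) for *Mertk*, and chr9:124101933-124102182 (plus) for *Ccr2*. Capitals mark a short ETS site (GGAAGT), the kind of site that SPIC and its relative PU.1 can bind, and a short Maf site (TGCTGA), on either strand.
Spic: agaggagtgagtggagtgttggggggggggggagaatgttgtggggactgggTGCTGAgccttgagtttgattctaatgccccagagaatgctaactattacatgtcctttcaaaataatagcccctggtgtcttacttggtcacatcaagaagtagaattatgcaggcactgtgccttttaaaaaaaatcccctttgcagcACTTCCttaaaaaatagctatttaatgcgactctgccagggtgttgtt
C1qb: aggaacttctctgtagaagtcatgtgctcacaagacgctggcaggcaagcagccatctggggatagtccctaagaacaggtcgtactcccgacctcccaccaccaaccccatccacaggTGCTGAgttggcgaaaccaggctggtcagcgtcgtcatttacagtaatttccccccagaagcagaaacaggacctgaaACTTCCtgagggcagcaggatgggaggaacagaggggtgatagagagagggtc
C1qc: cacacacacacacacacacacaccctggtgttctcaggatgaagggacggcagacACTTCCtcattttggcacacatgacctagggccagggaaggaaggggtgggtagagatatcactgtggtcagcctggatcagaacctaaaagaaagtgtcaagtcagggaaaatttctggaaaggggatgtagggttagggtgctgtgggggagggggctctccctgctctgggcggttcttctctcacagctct
Mertk: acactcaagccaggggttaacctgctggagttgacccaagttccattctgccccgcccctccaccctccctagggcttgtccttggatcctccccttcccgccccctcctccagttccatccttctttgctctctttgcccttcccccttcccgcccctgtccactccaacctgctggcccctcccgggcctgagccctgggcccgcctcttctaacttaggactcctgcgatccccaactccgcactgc
Ccr2: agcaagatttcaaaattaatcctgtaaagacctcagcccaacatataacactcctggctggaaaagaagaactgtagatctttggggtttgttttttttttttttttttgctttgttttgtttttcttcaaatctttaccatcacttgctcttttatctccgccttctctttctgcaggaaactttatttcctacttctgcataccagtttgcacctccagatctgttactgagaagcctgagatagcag

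The windows of *Spic* and *C1qb* held both marked sites once, that of *C1qc* held the ETS site alone, as part of the longer site GAGGAAGT, and those of *Mertk* and *Ccr2* held neither. Across 10907 windows of genes tested, 24.5% held GGAAGT and 12.6% held TGCTGA, against 19.7% and 16.1% across all 32851 windows of this length. Among 1473 windows of genes higher in RPMs the shares were 20.3% and 14.9%, and among 1119 windows of genes lower in RPMs 23.6% and 13.9%, so that on which side of the background they lay depended on the set of windows compared. The longer site GAGGAAGT was in 2.44% of all windows, 2.71% of those of genes tested, 2.44% of those of genes higher, and 4.29% of those of genes lower in RPMs. KLF sites (CACCC) were in 52.0%, 56.9%, 59.5%, and 64.6%, in the same order. These letters were searched on both strands, GGAAGT lies within GAGGAAGT, and windows of 1124 genes higher and 840 genes lower were found. A match or its absence is a description of the letters, and no binding was measured here.

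Genes that handle iron and heme were more often higher than lower in RPMs. Of 26 tested, 17 rose, 1 fell, and 8 were not called, with a median log2 fold change of 2.05. Among 8 genes of heme uptake and breakdown, 6 rose and none fell. *Hmox1*, the heme oxygenase that opens the heme ring, was counted at 4.12, 4.79, 12.8, and 10.9 CPM in monocytes and 986, 884, 1010, and 1240 CPM in RPMs (log2 fold change 6.96, SE 0.38, edgeR's adjusted p = 1.46e-07). *Cd163*, the receptor for haptoglobin-bound hemoglobin, was counted at 4.58, 3.79, 2.29, and 5.54 CPM in monocytes and 380, 329, 438, and 327 CPM in RPMs (log2 fold change 6.44, SE 0.24, edgeR's adjusted p = 9.69e-09). Neither gene overlapped between groups. *Blvra* (2.40) and *Blvrb* (4.61), the biliverdin reductases that act after heme oxygenase, rose too (log2 fold changes). So did *Slc48a1* (3.36), which carries heme out of the phagosome, and *Lrp1* (2.15), the receptor for heme bound to hemopexin. *Flvcr1*, which exports heme, was counted at 7.79, 8.79, 16.7, and 15.6 CPM in monocytes and 15, 12.8, 15.2, and 12.5 CPM in RPMs, where the groups overlapped, and was not called (log2 fold change 0.17, edgeR's adjusted p = 0.621).

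Of 10 genes of iron export, transport, and reduction, 7 rose and 1 fell. *Slc40a1*, ferroportin and the iron exporter, was counted at 9.01, 14.8, 4.13, and 4.64 CPM in monocytes and 1580, 1390, 1740, and 1880 CPM in RPMs (log2 fold change 7.64, SE 0.41, edgeR's adjusted p = 1.24e-07). *Slc11a1*, the phagosomal metal transporter NRAMP1, was counted at 14.1, 16, 40.6, and 32.4 CPM in monocytes and 241, 188, 273, and 244 CPM in RPMs (log2 fold change 3.18, SE 0.32, edgeR's adjusted p = 1.41e-05). Both groups were apart, and *Slc11a1* was already well counted in monocytes. *Slc11a2*, the endosomal transporter DMT1, rose from 5.75 ± 0.812 to 16 ± 0.857 CPM. *Tfrc*, the transferrin receptor, rose from 8.69 ± 2.41 to 55.6 ± 9.51 CPM, *Slc39a8*, an importer of zinc and iron, from 1.17 ± 0.151 to 12 ± 2.02 CPM, and *Hfe*, which binds the transferrin receptor, from 17.2 ± 7.27 to 67.2 ± 8.79 CPM. *Lcn2*, which binds iron-carrying siderophores and is also a neutrophil granule gene, fell from 98.5 ± 53.6 to 0.611 ± 0.457 CPM (log2 fold change −7.27, SE 0.62, edgeR's adjusted p = 4.05e-06, and −7.91 without RPM library 1), and is itself one of the neutrophil markers.

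Of 8 genes of iron storage and its control, 4 rose and 4 were not called, with a median log2 fold change of 0.69. *Ftl1* and *Fth1*, the light and heavy chains of ferritin, were high in both cell types. *Ftl1* was counted at 139, 136, 269, and 213 CPM in monocytes and 1250, 1040, 1630, and 1490 CPM in RPMs (log2 fold change 2.82, SE 0.26, edgeR's adjusted p = 7.01e-06). *Fth1* was counted at 185, 179, 195, and 167 CPM in monocytes and 800, 634, 1060, and 882 CPM in RPMs (log2 fold change 2.20, SE 0.17, edgeR's adjusted p = 2.13e-06). Per length of transcript, they were the 6th and 7th most abundant protein-coding genes of RPMs, mitochondrial genes and histones left out. Their levels were 9440 ± 792 and 9080 ± 729 TPM (a level scaled by gene length, mean ± SD, n = 4), from 1590 and 2380 TPM in monocytes. *Ncoa4*, which carries ferritin to the lysosome, rose from 12.4 ± 2.3 to 76.5 ± 33.5 CPM and was highest in the RPM libraries of mice 3 and 4, which also held the most globin. *Aco1*, the iron regulatory protein IRP1, rose (1.20), whereas *Ireb2* (IRP2, −0.38), *Fbxl5* (−0.59), which targets IRP2 for degradation, and the iron chaperone *Pcbp1* (0.17) were not called (log2 fold changes, edgeR's adjusted p between 0.00448 and 0.265).

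**Figure D3:**
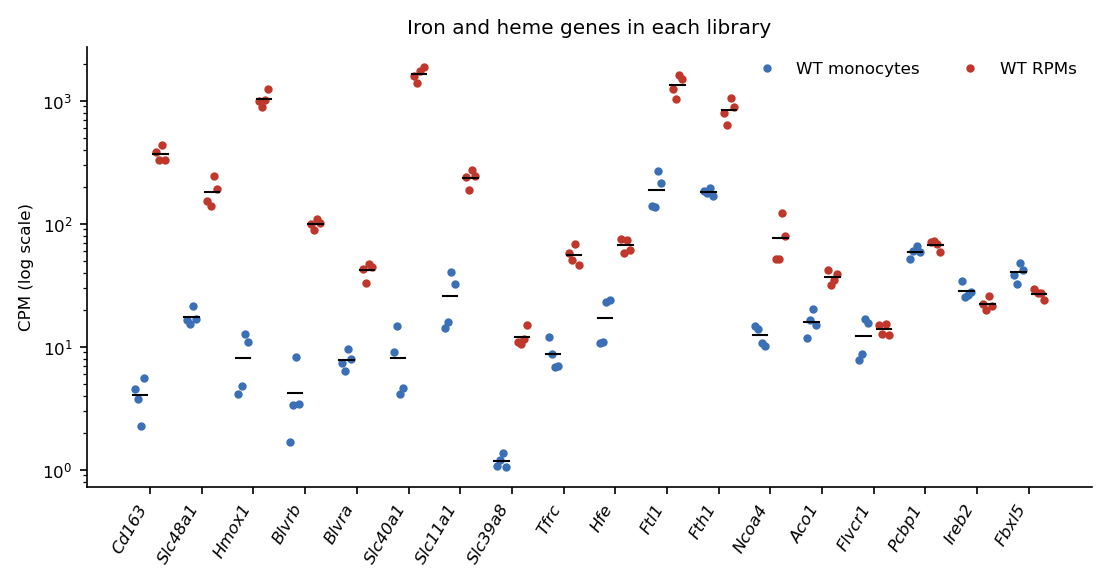
CPM (log scale) of 18 iron and heme genes in the 4 libraries of WT monocytes (blue) and WT RPMs (red), with bars at the mean. *Slc40a1*, *Hmox1*, and *Cd163* differ most, with no overlap, and the last 4 genes from *Flvcr1* to *Fbxl5* were not called.

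Complement components and receptors moved in opposite directions. Of 8 components tested, 6 rose and 2 fell, and of 7 receptors and regulators, 3 fell and none rose. The chains of C1q, which tags targets for uptake, were all higher. *C1qa* was counted at 2.29, 1.8, 3.44, and 2.25 CPM in monocytes and 598, 474, 675, and 536 CPM in RPMs (log2 fold change 7.85, SE 0.23, edgeR's adjusted p = 2.48e-09). *C1qb* was counted at 0, 0.399, 0.459, and 0.15 CPM in monocytes and 427, 330, 475, and 379 CPM in RPMs, at least 734-fold higher in RPMs, since no monocyte library held more than 3 counts (edgeR's adjusted p = 4.74e-09). *C1qc* was counted at 0.305, 1.2, 0.229, and 0.3 CPM in monocytes and 513, 421, 577, and 476 CPM in RPMs (log2 fold change 9.90, SE 0.33, edgeR's adjusted p = 4.82e-09). In RPMs the chains lay between 330 and 675 CPM, and in monocytes *C1qa* alone exceeded 3 counts in every library. Without monocyte library 2, the log2 fold change of *C1qc* was 10.63. *C6*, a part of the membrane attack complex, was counted at 0, 0, 0, and 0.3 CPM in monocytes and 141, 123, 157, and 149 CPM in RPMs, at least 260-fold higher (edgeR's adjusted p = 5.12e-09). *Cfp*, properdin, which stabilizes the alternative pathway, rose from 12.3 ± 3.43 to 280 ± 24.2 CPM. *C1ra*, a protease of the C1 complex, rose from few counts (log2 fold change 2.46), a call lost without mice 3 and 4. Of the receptors for complement fragments, *C5ar1* (8.94 ± 2.17 to 0.89 ± 0.23 CPM) and *C3ar1* (4.47 ± 1.62 to 0.475 ± 0.345 CPM) fell. Over the whole complement list, 6 rose and 5 fell, and which direction was larger depended on the processing.

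Receptors for uptake were mixed, with 26 of 66 higher, 10 lower, and a median log2 fold change of 0.82. Receptors for dying cells and the proteins that bridge to them split within families. *Gas6*, the ligand of AXL and MERTK, rose from 0.488 ± 0.447 to 20.8 ± 3.95 CPM (log2 fold change 5.22, SE 0.39, edgeR's adjusted p = 1.44e-06, and 5.92 without monocyte library 4), whereas *Pros1*, the other ligand of MERTK, fell from 9.74 ± 3.68 to 0.766 ± 0.347 CPM (log2 fold change −3.60, SE 0.40, edgeR's adjusted p = 2.81e-05). *Timd4*, which binds phosphatidylserine, rose (5.56, and 6.17 without monocyte library 2), and *Mfge8*, a bridge to integrins, fell (−1.99). *Itgb5*, an integrin chain that takes part in the uptake of dying cells, rose from 24.6 ± 17.5 to 208 ± 13.6 CPM. *Stab2*, a scavenger receptor shared with sinusoidal endothelium, was counted at 0.916, 1.4, 0.229, and 0.15 CPM in monocytes and 203, 177, 191, and 222 CPM in RPMs (log2 fold change 8.15, SE 0.33, edgeR's adjusted p = 1.72e-08). Of the scavenger receptors, *Mrc1*, the mannose receptor CD206, was counted at 11.8, 10.4, 11.7, and 18.9 CPM in monocytes and 972, 816, 1210, and 1150 CPM in RPMs (log2 fold change 6.27, SE 0.26, edgeR's adjusted p = 1.64e-08), and both groups were far apart. *Colec12* fell from 61.6 ± 44.1 to 3.49 ± 1.68 CPM, and *Olr1*, the receptor for oxidized lipoprotein, was at least 12.1-fold lower. *Cd36*, which binds oxidized lipids, was not called (−0.59, edgeR's adjusted p = 0.139).

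Of 17 Fc receptors and inhibitory receptors, 7 were higher and 1 was lower. The exception was *Fcgr2b*, the inhibitory Fc receptor, counted at 36.8, 33.5, 53, and 44.9 CPM in monocytes and 9.31, 12.4, 12, and 9 CPM in RPMs (log2 fold change −1.99, SE 0.18, edgeR's adjusted p = 7.38e-06). *Siglece*, an inhibitory sialic acid receptor, was counted at 5.5, 5.19, 7.11, and 4.05 CPM in monocytes and 128, 103, 159, and 108 CPM in RPMs (log2 fold change 4.50, SE 0.21, edgeR's adjusted p = 4.43e-08). They moved in opposite directions, and neither overlapped between groups. The activating receptor *Fcgr1* (log2 fold change 2.49) and the neonatal Fc receptor *Fcgrt* (2.54) rose, as did the inhibitory receptor *Pirb* (1.90). Among 23 Toll-like and C-type lectin receptors, 7 rose and 3 fell. *Tlr4*, the sensor of lipopolysaccharide, was counted at 12.1, 7.79, 11, and 7.94 CPM in monocytes and 84.2, 69.6, 99.1, and 85.6 CPM in RPMs (log2 fold change 3.10, SE 0.18, edgeR's adjusted p = 1.95e-07), and its partner *Cd14* at 1.22, 5.39, 2.29, and 3.3 CPM in monocytes and 57.1, 52.1, 60.4, and 43.4 CPM in RPMs (log2 fold change 4.12, SE 0.30, edgeR's adjusted p = 1.35e-06). *Cd14* thereby was the one gene of the classical monocyte list that rose. Of the lectins of the Dectin family, *Clec4n* (Dectin-2) was counted at 0.916, 2, 2.52, and 1.65 CPM in monocytes and 103, 99.5, 104, and 94.2 CPM in RPMs (log2 fold change 5.84, SE 0.21, edgeR's adjusted p = 6.61e-09), and *Clec7a* (Dectin-1) at 65.8, 45.3, 174, and 129 CPM in monocytes and 6.98, 10.4, 4.01, and 5.08 CPM in RPMs (log2 fold change −3.96, SE 0.46, edgeR's adjusted p = 3.86e-05). *Clec1b*, the podoplanin receptor CLEC-2, was at least 11.9-fold higher, *Clec10a*, a galactose-binding lectin, was at least 10.6-fold lower, and *Tlr11*, a sensor of profilin, fell (−2.45, and −3.41 without RPM library 2). The Dectin pair crossed over, with Dectin-1 higher in every monocyte library and Dectin-2 in every RPM library.

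The transcription factors listed for monocytes and macrophages fell more often than they rose. Of 65 tested, 11 were higher and 24 lower, with a median log2 fold change of −0.71. Since 38 of the 65 were listed as known from monocytes, this balance follows in part from the choice of members. Factors known from macrophages accounted for 9 of the rises, out of 27 tested. *Maf*, a basic leucine zipper factor of macrophages, was counted at 10.1, 12.8, 19.7, and 19.2 CPM in monocytes and 390, 371, 405, and 397 CPM in RPMs (log2 fold change 4.64, SE 0.22, edgeR's adjusted p = 5.81e-08). *Nr1h3*, the oxysterol receptor LXRα, was counted at 1.99, 2.6, 4.36, and 4.19 CPM in monocytes and 94.4, 86.1, 99.9, and 95.3 CPM in RPMs (log2 fold change 4.82, SE 0.21, edgeR's adjusted p = 2.68e-08). RPM libraries were alike for both factors, and the monocyte libraries of mice 3 and 4 were above those of mice 1 and 2. *Tcf7l2*, a partner of β-catenin, was counted at 9.01, 4.79, 13.3, and 9.14 CPM in monocytes and 216, 194, 251, and 256 CPM in RPMs (log2 fold change 4.64, SE 0.26, edgeR's adjusted p = 1.52e-07). Smaller rises were those of *Rxra* (log2 fold change 2.25), the partner of LXRα, *Pparg* (2.53), a sensor of fatty acids, and *Mitf* (2.32) and *Tfec* (4.39), of the same family of basic helix-loop-helix factors. *Spi1*, encoding PU.1, was counted at 85.7, 68.1, 159, and 111 CPM in monocytes and 59, 63.5, 77.2, and 63 CPM in RPMs, and *Irf8* was at 179 ± 15.6 and 177 ± 25.2 CPM. These broad myeloid regulators were not called (log2 fold changes −0.71 and −0.04, edgeR's adjusted p = 0.0273 and 0.85).

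Of the macrophage factors, *Irf4* (−2.18) and *Mef2c* (−2.70), which B cells also use, fell besides *Runx3* and *Bach1* (log2 fold changes). Factors known from monocytes fell in 20 of 38 cases and rose in 2. *Klf4*, which promotes monocyte differentiation, was counted at 43.4, 36.5, 91.5, and 60.7 CPM in monocytes and 6.98, 3.87, 3.74, and 4.62 CPM in RPMs (log2 fold change −3.59, SE 0.33, edgeR's adjusted p = 7.22e-06). *Klf2* was counted at 168, 236, 179, and 189 CPM in monocytes and 22.9, 29.1, 9.62, and 15.2 CPM in RPMs (log2 fold change −3.33, SE 0.29, edgeR's adjusted p = 4.47e-06). Neither overlapped, although *Klf4* varied more between monocyte libraries. *Nr4a1*, required for nonclassical monocytes, fell by 2.14 on the log2 scale, and the immediate early factors *Fos* and *Junb* fell by 2.20 and 1.46. *Gfi1*, a transcriptional repressor that acts in myeloid development, fell from 6.03 ± 1.61 to 0.595 ± 0.319 CPM. *Bach1*, the heme-sensing repressor of *Spic* and *Hmox1*, was counted at 62.9, 45.7, 132, and 116 CPM in monocytes and 25.2, 30.1, 26.5, and 30.7 CPM in RPMs (log2 fold change −1.68, SE 0.30, edgeR's adjusted p = 0.000862). Its fall was not called without mice 3 and 4, whose monocyte libraries held the most *Bach1*. *Ets1* (193 ± 73.6 to 49.9 ± 21 CPM) and *Runx3* (71.7 ± 22.1 to 7.29 ± 5.26 CPM), which lymphocytes also express, fell, and both were higher in the monocyte libraries of mice 1 and 2, beside the NK markers. *Gata2*, which basophils and mast cells also express, was counted at 26.1, 19.6, 6.19, and 8.69 CPM in monocytes and 1.06, 2.85, 0.267, and 1.85 CPM in RPMs (log2 fold change −3.29, SE 0.57, edgeR's adjusted p = 0.00074). *Gata2* is itself one of the basophil and mast cell markers, which summed to 123, 129, 42.9, and 64.3 CPM in the same monocyte libraries.

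Lysosomal genes were higher more often than lower, with 32 rises and 3 falls of 77 tested and a median log2 fold change of 0.83. Hydrolases made up most of this, with 23 of 46 higher. *Ctsb*, the protease cathepsin B, was counted at 148, 123, 360, and 261 CPM in monocytes and 1920, 1550, 2200, and 2070 CPM in RPMs (log2 fold change 3.10, SE 0.33, edgeR's adjusted p = 2.21e-05). *Lgmn*, the asparagine protease legumain, was counted at 12.1, 8.79, 29.6, and 22.6 CPM in monocytes and 289, 246, 327, and 296 CPM in RPMs (log2 fold change 3.97, SE 0.33, edgeR's adjusted p = 3.81e-06). Both groups were apart, and monocytes of mice 3 and 4 again held the higher values. *Pla2g15*, a phospholipase of the lysosome, was counted at 5.5, 3.2, 17.2, and 9.89 CPM in monocytes and 203, 186, 212, and 184 CPM in RPMs (log2 fold change 4.45, SE 0.39, edgeR's adjusted p = 4.73e-06). *Ctsf* (4.25), another cathepsin, *Dnase2a* (3.14), which degrades the DNA of engulfed cells, *Acp2* (4.17), an acid phosphatase, and *Lipa* (2.39), the acid lipase, also rose (log2 fold changes). *Arsb*, which removes sulfate from dermatan sulfate, fell from 153 ± 8.02 to 10.3 ± 4.31 CPM (log2 fold change −3.90, SE 0.23, edgeR's adjusted p = 2.74e-07). *Ctsw*, a cathepsin of cytotoxic lymphocytes, fell (−3.95) and was higher in the monocyte libraries with more NK markers. Genes of the lysosomal membrane and of its proton pump were 9 higher and none lower of 31, with most subunits of the pump not called.

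Cholesterol efflux and storage genes rose in 8 of 21 cases (38.1%, against 13.4% of all genes tested) and fell in 2 (9.52%, against 10.5%). Genes of lipid synthesis rose in 1 (3.7%) and fell in 4 (14.8%) of 27, so the falls were near the share of all genes in both. *Lpl*, the lipoprotein lipase, was counted at 12.8, 10.4, 21.3, and 17.2 CPM in monocytes and 259, 246, 279, and 241 CPM in RPMs (log2 fold change 4.03, SE 0.21, edgeR's adjusted p = 1.11e-07). *Abcg3*, a transporter of the ABCG family, was counted at 16.2, 11.6, 17.4, and 16.3 CPM in monocytes and 309, 250, 308, and 309 CPM in RPMs (log2 fold change 4.23, SE 0.17, edgeR's adjusted p = 1.33e-08). The groups were apart, and mouse 2 gave the lowest RPM value of *Abcg3*. The cholesterol exporters *Abca1* (28 ± 7.46 to 141 ± 13.7 CPM) and *Abcg1* (39.8 ± 2.86 to 217 ± 22.1 CPM), both targets of LXRα, rose. *Elovl6*, which lengthens fatty acids, and *Hmgcs1*, of the mevalonate pathway, fell (log2 fold changes −2.45 and −1.18).

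Antioxidant genes rose in 13 of 29 cases and fell in 2, with a median log2 fold change of 0.83. *Gclm*, the regulatory subunit of the enzyme that limits glutathione synthesis, was counted at 2.75, 2.8, 2.75, and 4.49 CPM in monocytes and 27.7, 31.1, 59.9, and 48.2 CPM in RPMs (log2 fold change 3.65, SE 0.30, edgeR's adjusted p = 2.88e-06). *Prdx2*, a peroxiredoxin abundant in red blood cells, was counted at 11.1, 13.2, 14, and 11.1 CPM in monocytes and 54.8, 45, 147, and 95.3 CPM in RPMs (log2 fold change 2.77, SE 0.34, edgeR's adjusted p = 6.54e-05). *Cat*, catalase, was counted at 35.7, 34.3, 46.8, and 41.8 CPM in monocytes and 73.4, 69, 186, and 115 CPM in RPMs (log2 fold change 1.46, SE 0.29, edgeR's adjusted p = 0.00171). In RPMs all 3 were highest in the libraries of mice 3 and 4, where the erythroid sum was 22500 and 9520 CPM against 1970 and 1380 CPM. *Mt1*, a metallothionein, rose from 0.557 ± 0.436 to 11.6 ± 3.03 CPM, and *Prdx1* and *Txnrd1* rose by 1.61 and 1.35 on the log2 scale, with RPM libraries close to each other. *Prdx5* fell from 70.1 ± 24.3 to 17.2 ± 1.89 CPM (log2 fold change −2.04, SE 0.24, edgeR's adjusted p = 4.09e-05).

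Genes of classical monocytes were almost all lower in RPMs. Of 27 tested, 24 fell, 1 rose, and 2 were not called, with a median log2 fold change of −4.63, and 3 of them, *S100a8*, *S100a9*, and *Mmp8*, are also neutrophil markers. *Ccr2* (ENSMUSG00000049103, chromosome 9 from 124101950 to 124113557 on the plus strand), the receptor that brings monocytes into tissues, was counted at 248, 149, 427, and 346 CPM in monocytes and 9.1, 14.2, 2.14, and 3.92 CPM in RPMs (log2 fold change −5.29, SE 0.52, edgeR's adjusted p = 1.1e-05). *Ly6c2*, the surface antigen Ly6C, was counted at 40.5, 35.7, 53.9, and 54.5 CPM in monocytes and 1.9, 4.48, 1.6, and 1.15 CPM in RPMs (log2 fold change −4.30, SE 0.32, edgeR's adjusted p = 1.33e-06). *F13a1*, a clotting factor chain of monocytes, was counted at 89.2, 39.5, 341, and 216 CPM in monocytes and 2.12, 4.27, 1.34, and 0.923 CPM in RPMs (log2 fold change −6.27, SE 0.75, edgeR's adjusted p = 4.83e-05, and −5.68 without monocyte library 3). The groups were apart for all of them, and mice 3 and 4 had the highest monocyte values and the lowest RPM values. *Lyz2*, lysozyme, was the most abundant protein-coding gene of monocytes per length, mitochondrial genes and histones left out, at 15500 ± 10300 TPM (mean ± SD, n = 4). It was counted at 1020, 568, 3470, and 2300 CPM in monocytes and 52.3, 91.4, 15.2, and 20.3 CPM in RPMs (log2 fold change −5.37, SE 0.74, edgeR's adjusted p = 0.000133, and −5.98 without RPM library 2). *Chil3*, a chitinase-like protein, was counted at 40.6, 21.4, 59.9, and 24.6 CPM in monocytes and at 0 in every RPM library, at least 53.5-fold lower. *S100a4*, a calcium-binding protein, was at least 29.5-fold lower, since no RPM library exceeded 3 counts. *Plac8* (−4.39) and *Hp*, haptoglobin (−5.22), fell as well (log2 fold changes).

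Nonclassical monocyte genes fell in 13 of 25 cases and rose in 3, with a median log2 fold change of −1.36. The number that rose was 5 without monocyte library 3 and 7 without mice 3 and 4. *Cx3cr1*, the fractalkine receptor, was counted at 62.8, 51.1, 173, and 114 CPM in monocytes and 2.54, 4.48, 2.4, and 1.39 CPM in RPMs (log2 fold change −5.19, SE 0.47, edgeR's adjusted p = 6.8e-06). *Ace*, the angiotensin-converting enzyme, was counted at 209, 180, 536, and 353 CPM in monocytes and 7.41, 16.5, 2.4, and 1.62 CPM in RPMs (log2 fold change −5.49, SE 0.63, edgeR's adjusted p = 3.77e-05). In both, RPMs of mouse 2 had the highest level of their group yet stayed far below any monocyte library, and without it the log2 fold change of *Ace* was −6.35. *Ceacam1* (−4.99), an adhesion molecule, and the integrin chain *Itgal* (−4.63) and sialophorin *Spn* (−4.55), which NK cells also carry, fell. The genes of this list that rose and were not lost on leaving out a library were *Treml4* and *Adgre4* (log2 fold changes 2.81 and 1.73), both surface receptors of macrophages as well.

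Chemokine receptors fell in 8 of 14 cases and rose in 1. The one that rose, *Ccr3*, a receptor for eotaxins also known from eosinophils, was counted at 3.67, 1.4, 4.82, and 7.04 CPM in monocytes and 313, 268, 392, and 268 CPM in RPMs (log2 fold change 6.14, SE 0.36, edgeR's adjusted p = 2.25e-07). Its ligand *Ccl24*, eotaxin-2, was counted at 0.764, 0, 3.9, and 2.7 CPM in monocytes and 57.1, 41.7, 62, and 55.9 CPM in RPMs (log2 fold change 4.88, SE 0.47, edgeR's adjusted p = 9.42e-06). Receptor and ligand rose together in every RPM library. *Ccr1* (−3.87), *Cxcr4* (−1.90), and the sphingosine receptor *S1pr5* (−3.28) fell (log2 fold changes), as did 5 of 7 chemokine ligands, among them *Ccl3* (−5.01, and −5.82 without RPM library 3), *Ccl4* (−4.61, and −5.63 without RPM library 2), and *Ccl6* (−2.33). *Ccl9* was counted at 70.9, 48.1, 126, and 90.3 CPM in monocytes and 2.33, 2.85, 0.267, and 1.15 CPM in RPMs (log2 fold change −5.60, SE 0.43, edgeR's adjusted p = 2.1e-06). *Ccl5*, a product of cytotoxic lymphocytes, was counted at 393, 393, 137, and 233 CPM in monocytes and 8.68, 15.9, 6.41, and 5.77 CPM in RPMs (log2 fold change −4.97, SE 0.42, edgeR's adjusted p = 4.24e-06), and its monocyte values followed the NK sum. *Cxcl9* rose (log2 fold change 2.38, and 3.09 without monocyte library 1) from few counts and was not called without mice 3 and 4.

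Of 26 adhesion genes, 6 rose and 11 fell. Besides *Vcam1* and *Itgad*, *Itga9*, an integrin chain that binds VCAM1, was counted at 1.99, 6.59, 5.74, and 3.45 CPM in monocytes and 347, 275, 311, and 339 CPM in RPMs (log2 fold change 6.18, SE 0.31, edgeR's adjusted p = 6.76e-08). *Itga4*, which binds VCAM1 in its own right, was counted at 591, 529, 593, and 593 CPM in monocytes and 130, 164, 110, and 103 CPM in RPMs (log2 fold change −2.21, SE 0.17, edgeR's adjusted p = 1.77e-06). Both partners of VCAM1 were thus at measurable levels in RPMs, *Itga9* higher and *Itga4* lower than in monocytes. *Itgb7*, a partner of *Itga4*, fell from 104 ± 14.7 to 12.7 ± 7.69 CPM. *Jup*, the junction protein plakoglobin, rose from 6.26 ± 1.89 to 142 ± 13.1 CPM, and *Pecam1*, also an endothelial gene, from 18.1 ± 4.2 to 121 ± 10.3 CPM.

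Among cytokines, receptors, and inflammasome genes, 8 of 51 rose (15.7%, near the 13.4% of all genes tested) and 12 fell (23.5%, against 10.5%). Which direction was larger depended on the processing. *Igf1*, insulin-like growth factor, was counted at 0.611, 0, 0.229, and 0.449 CPM in monocytes and 158, 152, 212, and 194 CPM in RPMs (log2 fold change 8.87, SE 0.32, edgeR's adjusted p = 7.74e-09). *Il18* was counted at 0.764, 0.599, 2.06, and 2.55 CPM in monocytes and 51.6, 41.3, 60.4, and 62.8 CPM in RPMs (log2 fold change 5.12, SE 0.32, edgeR's adjusted p = 3.52e-07). The receptor chain of IL-18, *Il18rap*, was counted at 234, 260, 97.3, and 161 CPM in monocytes and 4.44, 6.51, 3.21, and 3 CPM in RPMs (log2 fold change −5.44, SE 0.37, edgeR's adjusted p = 7.06e-07). The ligand was therefore higher in RPMs and the receptor chain in monocytes, where the receptor followed the NK sum. *Csf1r*, the receptor on which macrophages depend for survival, was counted at 114, 112, 379, and 270 CPM in monocytes and 1540, 1310, 1610, and 1380 CPM in RPMs (log2 fold change 2.72, SE 0.38, edgeR's adjusted p = 0.000151), while its ligand *Csf1* fell from 11.8 ± 6.13 to 1.95 ± 0.853 CPM. *Il1a* was at 0 in every monocyte library and at 7.62, 12.4, 12, and 15 CPM in RPMs, at least 21.4-fold higher (edgeR's adjusted p = 1.05e-05). *Il1r1*, a receptor for IL-1, was at least 25.8-fold higher, and *Il1rn*, the antagonist of IL-1, was at least 5.8-fold lower. *Il15* (2.17) and the receptor gene *Tgfbr2* (1.39) rose, and *Il17ra* (−2.48), *Il18r1* (−4.28), and *Flt3* (−3.68), a receptor also of dendritic cells, fell (log2 fold changes). Of 11 inflammasome genes, *Mefv*, encoding pyrin, alone was called (−3.21).

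Of 16 genes of MHC class II presentation and costimulation, 3 were called, namely the costimulatory genes *Cd86*, *Cd80*, and *Cd40*. Of these, 2 rose, and 5 genes of the list rose without mice 1 and 2. The costimulatory molecule *Cd86* was counted at 5.35, 4.99, 8.26, and 5.54 CPM in monocytes and 101, 90.1, 109, and 96.7 CPM in RPMs (log2 fold change 4.03, SE 0.17, edgeR's adjusted p = 1.76e-08), and *Cd80* rose from 2.43 ± 0.827 to 15.4 ± 3.86 CPM. *Cd40* fell from 15.7 ± 4.98 to 2.84 ± 2.35 CPM, a call lost without mice 3 and 4 (log2 fold change −2.42, and −3.18 without RPM library 2). *Cd74*, the invariant chain, was at 6000 and 8870 TPM in monocytes and RPMs and was not called (log2 fold change 0.84, edgeR's adjusted p = 0.00854). Interferon-stimulated genes rose in 3 of 45 cases and fell in 9. Without mice 3 and 4 the counts were 5 and 5, without mice 1 and 2 they were 3 and 16, and without RPM library 1 alone 3 and 5. *Ifi27* rose (2.52) and *Ifi205* fell (−2.84). *Rsad2*, viperin, was counted at 0.458, 3.79, 5.51, and 7.19 CPM in monocytes and 47.6, 36.2, 407, and 162 CPM in RPMs (log2 fold change 5.25, SE 0.88, edgeR's adjusted p = 0.000574). Its RPM values were in the order of the erythroid sums, and without RPM library 3 the log2 fold change was 4.27. *Slfn1* (−3.63) and *Zbp1* (−2.66), a sensor of nucleic acids, fell (log2 fold changes).

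Of 40 cell cycle genes, 12 rose and 1 fell, with a median log2 fold change of 0.70, and 7 rose without mice 1 and 2 or without mice 3 and 4. *Mki67*, the proliferation marker Ki-67, was counted at 31.9, 23, 26.6, and 27.9 CPM in monocytes and 90.6, 142, 103, and 148 CPM in RPMs (log2 fold change 2.12, SE 0.18, edgeR's adjusted p = 4.4e-06). *Ube2c*, which acts in mitotic exit, was counted at 1.53, 0.998, 0.918, and 1.05 CPM in monocytes and 6.56, 5.49, 21.4, and 14.3 CPM in RPMs (log2 fold change 3.31, SE 0.49, edgeR's adjusted p = 0.000225). In RPMs *Mki67* was highest in mice 2 and 4, whereas *Ube2c* was highest in mice 3 and 4, as was the erythroid sum. *Tk1*, a thymidine kinase, rose (2.35), as did *Nusap1* (2.62), a spindle protein whose call was lost without mice 3 and 4, and *Hmgb2*, a chromatin protein, fell (−1.41). Of 24 glucose uptake and glycolysis genes, 9 fell and 2 rose, and 7 pentose phosphate genes were not called. The glucose transporter *Slc2a3* fell from 30.3 ± 14.1 to 4.33 ± 1.54 CPM and was higher in the monocyte libraries with more NK markers. *Slc2a6* (−4.16) and the lactate exporter *Slc16a3* (−3.61) fell with no overlap. The hexokinases crossed, with *Hk1* lower (−1.95) and *Hk3* higher (1.82) in RPMs, and the lactate transporter *Slc16a1* rose (2.07). Of 84 subunits of oxidative phosphorylation, 2 rose and 1 fell, with a median log2 fold change of −0.15 and a larger direction that depended on the processing. Of 79 cytosolic ribosomal protein genes none was called, and their median was −0.46, with up to 6 called lower in an alternative.

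Against the background of 13.4% of all genes higher and 10.5% lower in RPMs, the share of members higher was 93.1% in genes associated with RPMs, 65.4% in iron and heme genes, 44.8% in antioxidant genes, 41.6% in lysosomal genes, 39.4% in uptake receptors, and 30.0% in cell cycle genes. The share lower was 88.9% in classical and 52.0% in nonclassical monocyte genes, and 51.1% in the chemokine and adhesion genes. It was 36.9% in the listed transcription factors (52.6% of those known from monocytes, 14.8% of those from macrophages). In glycolysis and pentose phosphate genes it was 29.0%. Genes of MHC class II presentation (12.5% higher, 6.25% lower) and of lipid handling (18.8% and 12.5%) lay near the background, and oxidative phosphorylation (2.38% and 1.19%) and ribosomal genes lay below it. Several lists share genes, and all were chosen for these cell types.

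**Figure D4:**
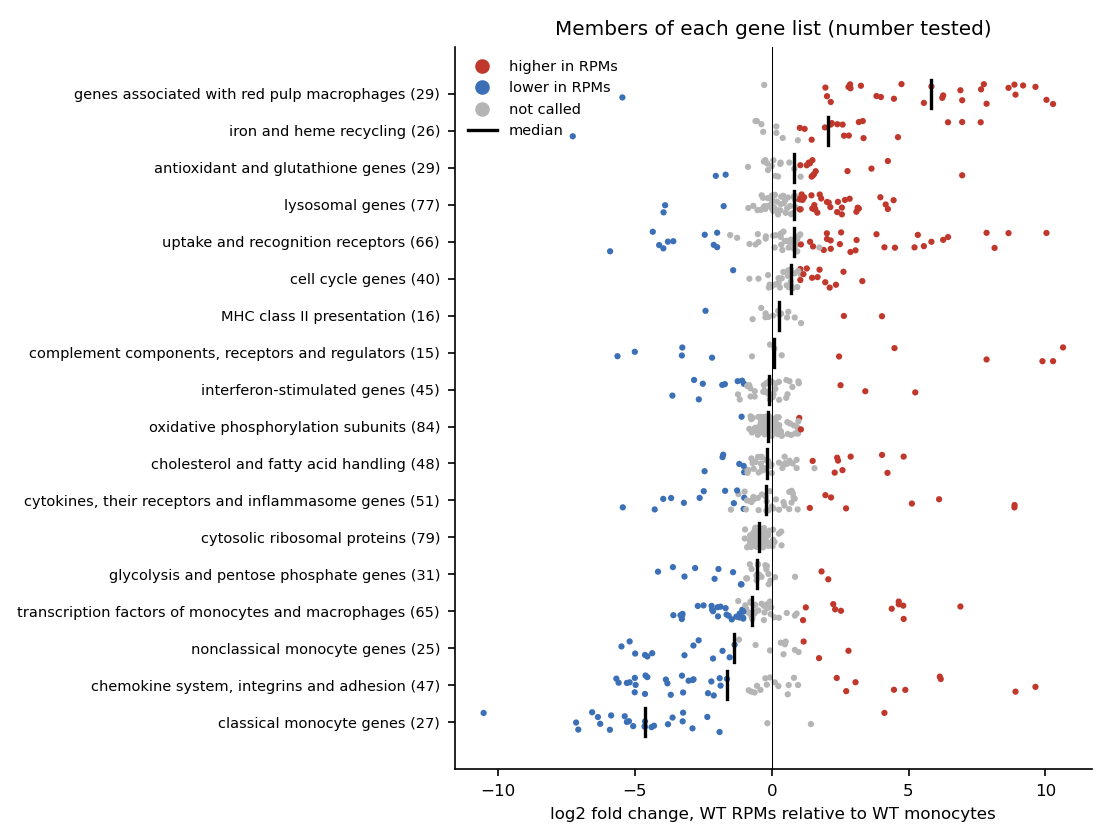
Log2 fold change of RPMs relative to monocytes (x axis) for every tested member of 18 gene lists (rows, with the number tested), colored by call, with a black bar at the median. The medians run from −4.63 in classical monocyte genes to 5.84 in genes associated with RPMs, and the ribosomal list holds no called gene.

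The largest changes among well-counted genes partly lay outside these lists. Among the 15 largest rises, *Kcnj10* and *Kcnj16*, which form an inwardly rectifying potassium channel, stood at 390, 349, 441, and 406 CPM and 116, 112, 140, and 133 CPM in RPMs, and no monocyte library exceeded 3 counts of either. They were at least 723-fold and 228-fold higher (edgeR's adjusted p = 1.19e-09 and 1.82e-09). Bounded in the same way, *Dgki*, a diacylglycerol kinase, was at least 363-fold and *Postn*, the matrix protein periostin, at least 156-fold higher. *Fcna*, a ficolin that starts the lectin pathway of complement, was counted at 0.305, 0.799, 1.15, and 1.8 CPM in monocytes and 522, 428, 542, and 544 CPM in RPMs (log2 fold change 8.91, SE 0.33, edgeR's adjusted p = 8.37e-09). The globin genes *Hbb-bs*, *Hba-a1*, *Hba-a2*, and *Hbb-bt* were also among the 15. *Hbb-bs* was counted at 1.53, 3, 13.3, and 4.19 CPM in monocytes and 1050, 649, 14500, and 5950 CPM in RPMs (log2 fold change 10.01, SE 1.27, edgeR's adjusted p = 7.58e-05). It varied widely between RPM libraries, with a log2 fold change of 8.92 without RPM library 3 and 10.88 without monocyte library 3. Per length, it was the most abundant protein-coding gene of RPMs, mitochondrial genes and histones left out, at 59600 ± 62300 TPM (mean ± SD, n = 4).

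Among the 15 largest falls were genes of neutrophil granules and of cytotoxic lymphocytes. *Ltf*, lactoferrin, was counted at 343, 197, 396, and 108 CPM in monocytes and 1.27, 1.83, 2.14, and 0.231 CPM in RPMs (log2 fold change −7.58, SE 0.55, edgeR's adjusted p = 1.27e-06), *Ngp* at 510, 247, 497, and 159 CPM in monocytes and 0.847, 3.87, 2.4, and 1.39 CPM in RPMs (log2 fold change −7.37, SE 0.53, edgeR's adjusted p = 1.14e-06), and *S100a9*, a subunit of calprotectin, at 813, 454, 565, and 257 CPM in monocytes and 6.77, 4.48, 4.01, and 6.93 CPM in RPMs (log2 fold change −6.56, SE 0.39, edgeR's adjusted p = 2.74e-07). Among monocyte libraries, these genes and *Camp*, *Lcn2*, and *S100a8* were lowest in mouse 4, as was the neutrophil sum of which they are members, whereas *Cd177* was lowest in mouse 2. *Gzma*, granzyme A, was counted at 771, 895, 243, and 475 CPM in monocytes and 11.6, 9.97, 3.47, and 4.62 CPM in RPMs (log2 fold change −6.32, SE 0.51, edgeR's adjusted p = 2.99e-06), and *Prf1*, perforin, fell likewise (−5.70). *Gzma*, *Prf1*, and *Ncr1* are themselves the largest members of the NK sum, and *Itga2*, which is not a member, was in the order of that sum, at 73.9, 84.5, 30.5, and 53.3 CPM in monocytes. Of the falls in genes on neither marker list, *Fn1*, fibronectin, was counted at 279, 154, 1340, and 993 CPM in monocytes and 12.5, 20.6, 4.81, and 9.46 CPM in RPMs (log2 fold change −5.87, SE 0.75, edgeR's adjusted p = 7.98e-05), and *Anxa1*, annexin A1, at 211, 142, 200, and 102 CPM in monocytes, in the order of the neutrophil sum, and 1.27, 4.48, 1.6, and 2.31 CPM in RPMs.

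WT pre-RPMs were set beside both ends by their levels, with no further test. Of the 1554 genes higher in RPMs, the mean level of pre-RPMs lay within the range of the monocyte libraries in 685 and within that of the RPM libraries in 17. In 228 genes all 4 pre-RPM libraries lay between both groups without overlap, and in 485 the mean of pre-RPMs was beyond that of monocytes or of RPMs. These genes had a median log2 CPM of 2.03 at the monocyte stage, 2.25 at the pre-RPM stage, and 4.39 at the RPM stage. Of the 1215 genes lower in RPMs, the corresponding counts were 351, 185, 174, and 552, and the medians were 4.37, 3.94, and 2.01. *Spic*, for example, was counted at 13, 8.4, 14, and 16.2 CPM in pre-RPMs, above every monocyte and below every RPM library, and *Ccr3* at 52.6, 40.4, 19.6, and 32.6 CPM. *Mertk* stood at 0.233, 0.788, 5.39, and 1.9 CPM, where mouse 3 was high and the range overlapped that of monocytes. The pre-RPM library of mouse 3 was also the highest for other large rises, though not for *Spic* or *Ccr3*. Examples are *C1qb* (0.93, 0.788, 16.2, and 2.14 CPM) and *Vcam1* (2.33, 2.1, 41.9, and 9.05 CPM). All counts of genes above include this library and were not repeated without it. *Ccr2*, at 593, 482, 561, and 500 CPM, was higher in each pre-RPM library than in any monocyte library, and *Klf4* overlapped between monocytes and pre-RPMs at 62.1, 63.8, 89.2, and 54.8 CPM.

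**Figure D5:**
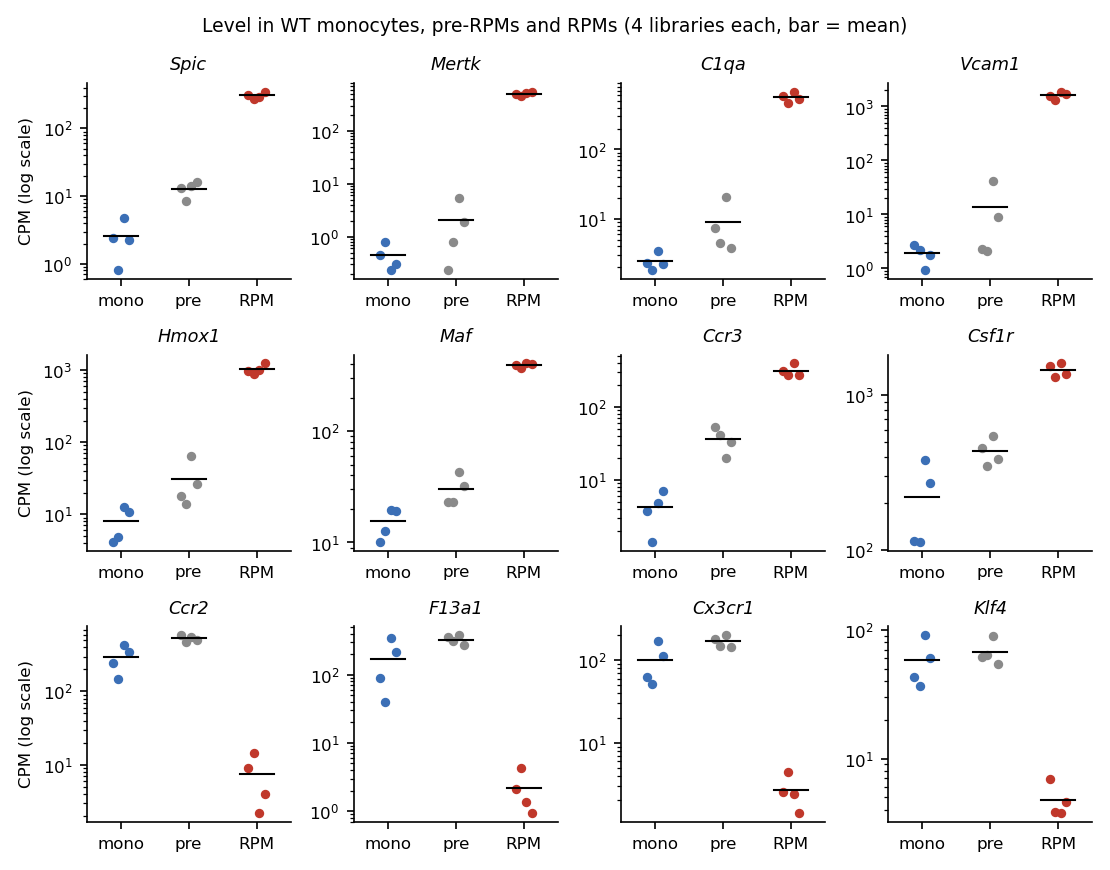
CPM (log scale) of 12 genes in the 4 libraries each of WT monocytes (blue), pre-RPMs (gray), and RPMs (red), with bars at the mean. *Spic* and *Ccr3* of pre-RPMs lie between both ends without overlap, and *Ccr2* of pre-RPMs lies above that of monocytes.

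The same contrast was made in libraries labelled IL1RL1-/-, which share no sample with the WT comparison. Of 11633 genes tested there, 3009 (25.9%) were called. Of the 1554 genes higher in WT RPMs, 1338 (86.1%, or 80.5% of 1662 higher there) were called higher and none lower, and of the 1215 lower in WT RPMs, 1045 (86.0%, or 77.6% of 1347) were called lower and none higher. The change between monocytes and RPMs differed between genotype labels in 4 of 12592 genes (0.0318%, edgeR's interaction test, adjusted p under 0.05), and 609 genes had an unadjusted p under 0.05. A replicate block on mouse number raised this to 21 genes, of which 3 were among the 4. *Il1rl1* itself stood at 3.19 ± 1.05 CPM in WT monocytes and at 14.1 ± 1.44 CPM in monocytes labelled IL1RL1-/-, and at 1.94 ± 0.8 and 0.826 ± 0.482 CPM in RPMs (mean ± SD, n = 4). Under the IL1RL1-/- label, its counts were thus higher in monocytes and lower in RPMs than in WT. Which exons held these counts was not examined, and the genotypes are named by label alone. The genotype difference of the log2 change of *Il1rl1* was −3.28 (edgeR's adjusted p = 0.0269).

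The other 3 genes were not those of iron handling. *Il1r1* rose from 0.17 ± 0.128 to 14.1 ± 3.64 CPM in WT and from 0.825 ± 0.225 to 4.94 ± 0.618 CPM in libraries labelled IL1RL1-/- (log2 difference −3.57, edgeR's adjusted p = 0.0382). Since no WT monocyte library exceeded 3 counts of *Il1r1*, that difference depends on the prior count. *Nrp2*, a receptor for semaphorins, went from 11.2 ± 2.84 to 2.71 ± 0.786 CPM in WT and from 6.83 ± 2.03 to 10.6 ± 2.37 CPM under the other label (log2 difference 2.66, edgeR's adjusted p = 0.00819). *Snx9*, a sorting nexin of endocytosis, was at 25.3 ± 3.24 and 23 ± 2.92 CPM in WT and at 20.1 ± 6.15 and 65.9 ± 2.43 CPM under the other label (log2 difference 1.85, edgeR's adjusted p = 0.00819). Of the 4, *Il1r1* and *Nrp2* were called between monocytes and RPMs in WT, in opposite directions. Leaving out a single library gave between 2 and 10 called genes, the lowest without WT monocyte library 3, WT RPM library 4, or library 2 or 3 of the IL1RL1-/- monocytes, or library 3 of the IL1RL1-/- RPMs, and the highest without IL1RL1-/- monocyte library 4.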

How the data were processed

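Splenic monocytes and red pulp macrophages of WT mice were compared by RNA-seq. The libraries were made with a stranded total RNA kit for low input. According to the methods and the submitters' processing notes, the authors trimmed reads with cutadapt and aligned them with STAR 2.5.1. Per the file headers, read pairs were counted per gene name, by strand, with featureCounts 1.6.2 on the exons of Ensembl release 95 (GRCm38). The deposited values are counts, whole numbers that the authors had neither normalized nor filtered. The notes also list a human build, which the headers do not. Each library lists 54735 genes, of which 8 have exons on more than 1 chromosome, and GENCODE M21 gave 54057 of them a single Ensembl ID. Reads shared by near-identical genes, such as globins and chains of gene families, may be split between copies.

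Groups follow the labels, and each value is of 1 mouse. Genes were tested with edgeR 4.0.16 in R 4.3.3 (filterByExpr, TMM, quasi-likelihood F test, Benjamini-Hochberg adjustment over all genes tested), using limma 3.58.1. Calls between cell types required an adjusted p under 0.01 together with a log2 fold change beyond 1 in either direction, and calls of a genotype difference an adjusted p under 0.05. CPM used TMM factors over 24 libraries, and log2 CPM a prior count of 2. The SE printed with a log2 fold change is its absolute value divided by the square root of the F statistic. It was not estimated directly. For genes with few counts in a group, such as *Mertk* (3, 4, 1, and 2 counts in monocytes), it can understate the error. Where all libraries of a group held 3 counts or fewer, the fold is a lower bound, computed against the CPM of 3 counts per library. Counting floors cover counting error only. On simulated counts of 11607 genes, the test recovered 71 of 100 genes changed 3-fold and 97 of 100 changed 8-fold, with 0 false calls. These were the only genes changed, evenly up and down. Far more genes were called in the data, so the simulation does not give the rate of false calls in this comparison. The labels give the same mouse numbers to monocytes and RPMs, which are taken as the same animals. Libraries of the same number also share an index. After subtraction of group means, the monocyte and RPM libraries of mice 1 to 4 correlated over 11607 genes at r = 0.041, 0.1621, 0.1688, and 0.05, and the number was tried as a replicate block.

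The genes named are members of the lists, the called genes with the 15 largest increases and the 15 largest decreases (groups without overlap, average log2 CPM of at least 5), the 10 most abundant protein-coding genes per length (mitochondrial genes and histones left out), and the genes that differed between genotypes. The members and lists were chosen with earlier results of these data known. Genes whose call was lost on leaving out a single library or with total counts were, after seeing the data, not described singly. Some genes named by the rule are not reported here. Alternatives were RLE size factors, total counts, DESeq2 1.42.0, other filters, glmTreat, more libraries in the fit, the block, without the most counted noncoding genes, without each library, and without pairs of mice. Figures were drawn with matplotlib 3.10.9 in Python 3.11.15. Replicates differed by at least 5.77 times the chi-square expected from counting error alone. The other 24 samples, of chromatin accessibility, were not used here.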

Additional observations from a re-analysis of the deposited data

Results flagged for a closer look

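In a group of 4 mice, 1 library stood far from the other 3 in 12 of 390 pairs of gene and group, where chance alone gives about 1 in 20. In monocytes, *Itgam* was at 58.3 CPM in library 2, against 77.0 to 80.8 in the others, *C6* at 0.3 in library 4 against 0 (2 counts, which are not told apart from 0), and *C1qc* at 1.2 in library 2 against 0.229 to 0.305. *Mrc1* was at 18.9 CPM in monocyte library 4 against 10.4 to 11.8, *Gclm* at 4.49 in library 4 against 2.75 to 2.8, *Cd86* at 8.26 in library 3 against 4.99 to 5.54, *Junb* at 40.2 in library 1 against 60.4 to 63.7, and *Itga4* at 529 in library 2 against 591 to 593. In RPMs, library 2 was apart each time, with *Itgam* at 4.27 CPM against 1.34 to 1.69, *Tlr11* at 3.66 against 0.534 to 1.06, *Arsb* at 16.7 against 7.39 to 8.82, and *Abcg3* at 250 against 308 to 309.

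The change from monocytes to RPMs differed between libraries labelled IL1RL1-/- and WT in edgeR's interaction test, by a log2 difference of 1.85 for *Snx9*, 2.66 for *Nrp2*, −3.28 for *Il1rl1*, and −3.57 for *Il1r1*.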

How the results depend on the processing

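The number of genes called between WT monocytes and RPMs was within 1.5 times of 2769 in every alternative except a filter of at least 10 counts in every library (1470, of 9004 genes tested) and glmTreat, which tests against the threshold itself (1567). In libraries labelled IL1RL1-/-, the same alternatives gave 1536 and 1878 against 3009. Leaving out 1 library gave 2533 to 2947 genes in WT, of which 2412 to 2614 were shared, and 2945 to 3116 under the other label. The replicate block gave 2737 and 3038 genes. DESeq2 gave 3346, and a filter of at least 1 count gave 3703. No gene called in both the main and another fit of WT had the opposite direction. The genotype difference was called in 4 genes, but in 2 with total counts, 38 with DESeq2, 165 with every gene of at least 1 count, 1 with at least 10 counts in every library, 21 with the replicate block, and 2 to 10 on leaving out 1 library, and the cause was not tested. Of the 195 genes examined singly, none turned direction over 3607 comparisons, and 20 comparisons lost the call, 15 under glmTreat and 5 without mice 3 and 4. Genes that lost the call without 1 library or with total counts were left out when these were chosen, so the small number lost follows in part from that choice. Leaving out 1 library moved the fold of 25 of the 195 by over 1.5 times, in 28 combinations of gene and library that all kept the call. Low genes are limited by depth, as 3 counts corresponded to between 0.449 and 0.802 CPM.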
